A study of Sinonovacula constricta with 18 samples.

Results

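The 150 isoform clusters described here were abundant in the gill and the labial palp of the razor clam Sinonovacula constricta and lower in its siphon, mantle, intestine and foot. They were chosen from 32250 clusters on their deposited FPKM (fragments mapped to a cluster, scaled by its length and by the size of the library). In 17396 clusters the lowest of the 6 gill and labial palp libraries was at least 1 FPKM, and in 650 of these it was also above all 12 libraries of the other tissues. The gill and labial palp means lay within 2-fold of each other in 589 of the 650. For 204 of them the ratio of the lower of these means to the highest mean of another tissue, with 0.1 added to each, was at least 2. The 150 with the highest ratios were kept, and 54 were left out by rank. The excess over the other tissues and the closeness of gill and labial palp were thus set by the choice and are given as descriptions, with no test.

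The gill and the labial palp of a bivalve are ciliated organs of suspension feeding. The gill draws water through the mantle cavity, captures suspended particles on its filaments and exchanges gases. The labial palps receive mucus-bound particles from the gill, sort them, and pass some to the mouth and reject the rest. Both organs are lined by ciliated and mucus-secreting epithelium, and ciliated epithelium is not confined to them. The clusters carry no gene names in the sources used here, so no role is given to any of them, and no tissue was checked against marker genes. Each cluster is named by the ending of its identifier, which is unique in the table.

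The study sequenced RNA of 6 tissues from healthy adults of this eyeless burrowing clam, with 3 libraries each of gill, labial palp, mantle, siphon, intestine and foot and no treatment named for any of them. The labial palp libraries are titled lips and the foot libraries muscle, and the tissue label of the latter reads foot muscle. Every library was a pool of 3 individuals, and p-values therefore measure the spread between pools. Whether pools of the same number shared individuals across tissues is not given in the sources used here. In these bulk libraries, fewer cells of a type and less RNA per cell cannot be told apart.

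The counts of a library summed to between 9982441 and 17970120, and those of gill and labial palp lay between 10677055 and 11796712. The deposited FPKM place most clusters higher in gill and labial palp than in siphon or foot. Over the 29930 clusters tested, the median log2 difference between the mean of the 6 gill and labial palp libraries and the tissue mean was 0.77 for siphon, 0.49 for mantle, 0.16 for intestine and 1.04 for foot. After division by TMM factors (trimmed mean of M-values, which bring the bulk of the clusters to one level in all libraries) these medians were 0.02, 0.08, 0.07 and 0.03. The members stood above these shifts, with medians of 3.24, 2.32, 2.69 and 4.10 on deposited FPKM and 2.46, 1.90, 2.57 and 3.09 after TMM. On the TMM scale 101 clusters met the rule, among them 88 of the 150 members. The ratio stayed at or above 2 in 109 members and under 1 in 0, and the 6 libraries remained above the other 12 in 105.

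**Figure D1:**
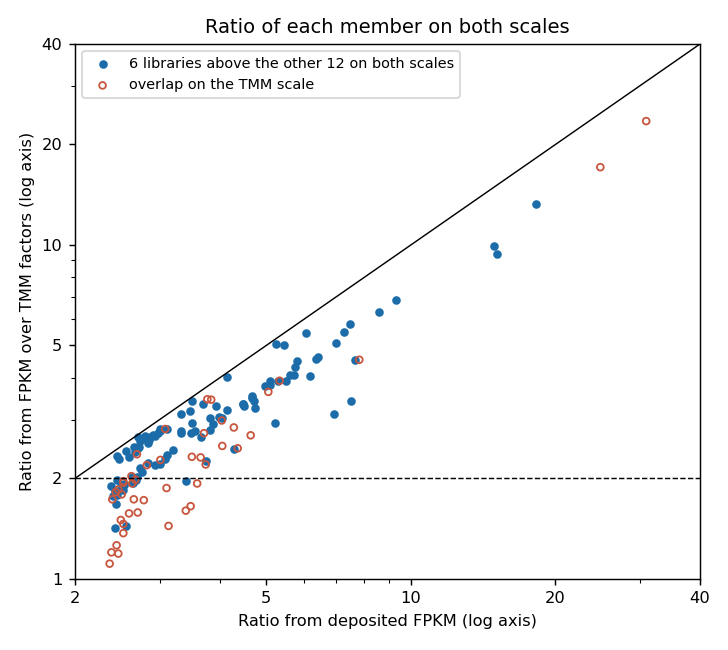
Ratio of the lower of the gill and labial palp means to the highest mean of another tissue, from deposited FPKM (horizontal) and from FPKM over TMM factors (vertical), both on log axes. Each point is a member, the solid line marks equal ratios and the dashed line a ratio of 2; open points are members whose 6 gill and labial palp libraries overlapped the other 12 on the TMM scale. Nearly the whole cloud lies under the line, and 109 of 150 points are at or above 2.

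The median member had a mean FPKM of 22.8 in gill and 21.2 in labial palp, against 4.85 in mantle, 2.41 in intestine, 2.04 in siphon and 1.29 in foot. Relative to the mean of the 6 gill and labial palp libraries, the median level was 19.5% in mantle, 14.3% in intestine, 9.89% in siphon and 5.37% in foot. The members together held 1.47% to 1.55% of the summed FPKM of a gill library and 1.44% to 1.54% of a labial palp library. They held 0.408% to 0.415% in mantle, 0.309% to 0.334% in intestine, 0.169% to 0.199% in siphon and 0.0931% to 0.134% in foot. Most members were therefore reduced rather than missing elsewhere, and 77 of 150 were above 0 in all 12 libraries of the other tissues. In the intestine 8 members were listed at 0 in 3 of 3 libraries and in the foot 1 was, while 0 were in siphon or mantle. No share of all clusters at 0 is given beside these counts, and nothing is read from them.

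**Figure D2:**
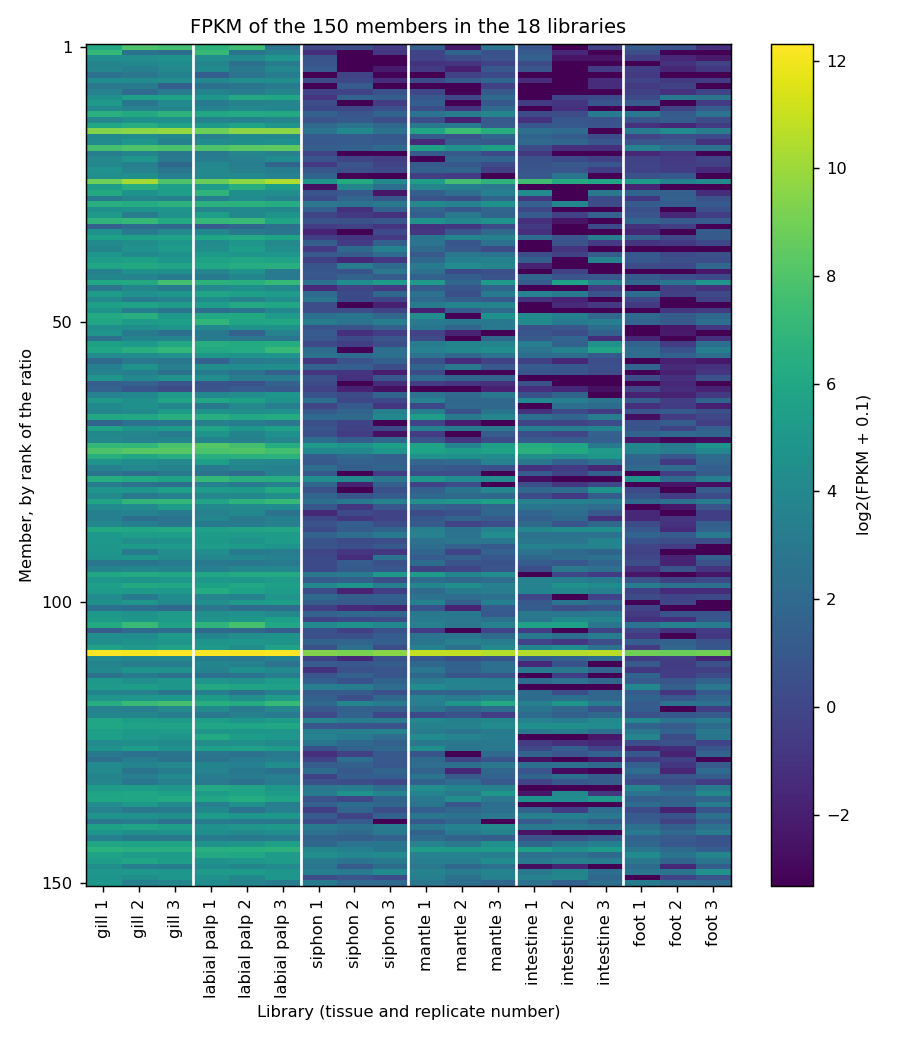
Heat map of log2(FPKM + 0.1) for the 150 members (rows, ordered by rank of the ratio) in the 18 libraries (columns, white lines between tissues). The 6 gill and labial palp columns are brighter than the other 12 in every row by the rule, the mantle columns are the brightest of the rest, and the dark cells are most frequent in intestine and foot.

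The ratio had a median of 3.16 and ranged from 2.36 to 30.9. It was at least 4 in 48 members and at least 10 in 5. First in rank was c11984/1/3367.1, at 68.5, 242 and 193 FPKM in gill and 107, 168 and 6.82 in labial palp. Its mantle libraries were at 2.60, 0.11 and 6.13, and its siphon, intestine and foot libraries were at or under 2.12. The third labial palp pool was thus close to the third mantle pool, although the mean ratio was the highest of all. c31354/1/2011.2, next in rank, was carried by pool 1, at 134 in gill and 141 in labial palp. The other gill and labial palp pools of this cluster were between 4.49 and 11.2, and the highest of the 12 other libraries was 3.23. Neither of these clusters kept its 6 libraries above the other 12 on the TMM scale.

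The third in rank, c26247/1/1904.1, was even across pools. Its values were 20.2, 20.4 and 26.1 in gill and 19.9, 18.1 and 27.8 in labial palp, and its highest value elsewhere was 2.84 in intestine 1. c62730/1/1957.2 and c62730/1/1957.1, at ranks 4 and 5, carry the same identifier up to a final suffix. The former was at 12.5, 15.7 and 19.4 in gill and 13.7, 5.29 and 9.82 in labial palp, and at most 1.63 elsewhere. The latter was at 13.5, 10.8 and 16.3 in gill and 17.6, 7.82 and 15.5 in labial palp, and at most 2.16 elsewhere. Of the 6 libraries, both were lowest in labial palp 2. Their log2(FPKM + 0.1) over the 18 libraries had a correlation of 0.931. The rule sets every member high in the same 6 libraries, which enters this value.

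Ranks 6 to 10 differed in level and in evenness. c59722/3/1843 lay between 2.42 and 11.4 in the 6 libraries and was listed at 0 in every intestine library. c20341/1/1406 was the most even of these, at 19.5, 18.6 and 20.4 in gill and 15.7, 21.2 and 21.4 in labial palp, with mantle at 1.06, 2.08 and 3.38. c8435/2/2624.1 ranged from 2.54 to 8.91, with 1 siphon library at 2.12 close to the lowest gill library. c20924/2/2573 ranged from 4.35 to 14.7 and was at 0 in the 3 intestine libraries. c39837/1/1578.1 was at 21.6, 46.0 and 48.7 in gill and 29.8, 70.2 and 59.6 in labial palp, and pool 1 was the lowest in both organs.

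Levels in gill and labial palp spanned a wide range. The mean of the 6 libraries was between 1 and 10 FPKM in 24 members, between 10 and 100 in 114 and at least 100 in 12. By far the most abundant was c19/5/958, the member with the shortest identifier length, 958. It was at 4851, 4340 and 5048 in gill and 4699, 4635 and 5078 in labial palp. It was also high in all other tissues, at 1858, 1917 and 1537 in mantle, 1544, 1455 and 1642 in intestine, 652, 583 and 747 in siphon and 478, 442 and 504 in foot. The 6 gill and labial palp libraries varied little, those of mantle and intestine overlapped, and the ratio of 2.68 became 1.97 after TMM. Without this cluster the members held 0.823% to 0.950% of the summed FPKM in gill and 0.836% to 0.907% in labial palp, and between 0.0350% and 0.199% in the other tissues.

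The next by level, c40803/1/2883.3, was at 468, 1174 and 248 in gill and 446, 799 and 1420 in labial palp. Count and FPKM together imply an effective length of 33.4 bases for it, so these FPKM rest on few reads for their level, 1480 over the 6 libraries. c181349/1/1582.1 was at 672, 766 and 909 in gill and 455, 787 and 786 in labial palp, from 23131 reads. Its mantle values were 61.2, 170 and 87.2, and siphon, intestine and foot were at most 18.8. c8439/15/1800.1 was at 205, 262 and 223 in gill and 242, 311 and 340 in labial palp, with mantle at 48.2, 23.8 and 46.8. c3641/15/1599 was at 249, 298 and 299 in gill and 233, 263 and 191 in labial palp, and had its highest other mean in intestine, at 99.5, 73.5 and 33.3, which overlapped mantle at 53.8, 37.7 and 50.4. By means, the mantle came next in c19/5/958, c40803/1/2883.3, c181349/1/1582.1 and c8439/15/1800.1, and the intestine only in c3641/15/1599.

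At the edge of the list the ratios were nearly continuous. The last members inside were c164/3/4660, c11294/1/1252.1 and c87408/1/1301 with ratios of 2.38, 2.37 and 2.36. The first clusters outside were c5418/1/3186.1, c45621/1/1333 and c12915/1/3779.1 with ratios of 2.34, 2.34 and 2.33. c164/3/4660 was at 30.0, 31.9 and 29.9 in gill and 33.3, 37.4 and 30.3 in labial palp, with siphon 3 at 19.3 and foot 3 at 24.3. c45621/1/1333, left out, was at 60.5, 49.5 and 82.4 in gill and 86.6, 65.2 and 77.4 in labial palp, with intestine at 20.4, 38.3 and 23.4. Levels inside and outside the edge overlapped.

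Gill and labial palp were next set side by side within the members. The gill mean was higher in 65 and the labial palp mean in 85, and on the TMM scale the gill mean was higher in 75. The means lay within 1.25-fold of each other in 80 members. The median size of the log2 difference was 0.30 for members, 0.34 for the 17396 clusters of at least 1 FPKM and 0.29 for those of them whose means were within 2-fold. In 10 members the 3 gill libraries lay above the 3 labial palp libraries and in 11 the reverse held. Among the 17396 clusters, which have no limit on the means, this occurred in 7.58% and 12.3%, and among the 15584 of them with means within 2-fold in 718 and 1564 clusters. The counts of the members amount to shares near that background, and nothing is read from them.

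The members farthest from equal means show how wide the limit was. c70391/1/1477.1 was at 18.8, 15.7 and 16.4 in gill and 9.08, 7.67 and 11.6 in labial palp, without overlap. c90948/1/1845.1 had the highest gill to labial palp ratio, 1.81, but was at 27.6, 8.31 and 5.2 in gill and 7.76, 2.92 and 12.1 in labial palp, and the groups overlapped. In the other direction c18283/1/3581.2 was at 7.08, 14.2 and 8.25 in gill and 16.3, 21.6 and 15.5 in labial palp. c62166/1/2471.2 was at 3.28, 5.89 and 6.96 in gill and 11.2, 9.71 and 7.35 in labial palp. The labial palp libraries of both lay above their gill libraries. Over the 6 libraries the highest value was a median of 2.26 times the lowest, from 1.17 in the most even member to 35.6 in c11984/1/3367.1, and the median over the 17396 clusters was 2.52.

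**Figure D3:**
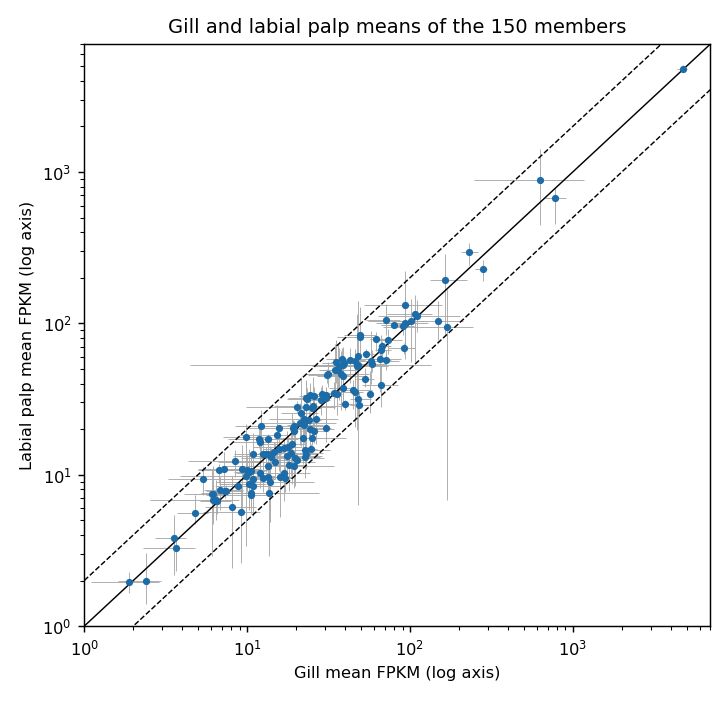
Mean FPKM in gill (horizontal) and labial palp (vertical) for the 150 members on log axes. Points are means of 3 libraries and bars run from the lowest to the highest library; the solid line marks equal means and the dashed lines the 2-fold limit of the rule. The points follow the line of equal means from about 1.89 to 4804 FPKM, and several bars are wider than the distance between the dashed lines.

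Differences among siphon, mantle, intestine and foot were tested next. The rule does not set these tissues against each other, but it used their 12 libraries and the highest of their means, and so removed clusters in which any of them was close to gill and labial palp. The shares of members below draw in part on those values and are given beside those of all clusters as descriptions. The mantle was the next highest tissue in 77 members, the intestine in 47, the siphon in 18 and the foot in 8. On the TMM scale the mantle was next in 73, the intestine in 30, the siphon in 29 and the foot in 18, and the next tissue was the same on both scales for 117 members. Mantle means exceeded siphon means in 116 of 150 members, foot means in 133 and intestine means in 97. The corresponding shares of the 17396 clusters of at least 1 FPKM were 72.2%, 77.7% and 37.6% on deposited FPKM. The counts of members on the TMM scale were 100, 118 and 108, with no share of all clusters on that scale beside them.

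**Figure D4:**
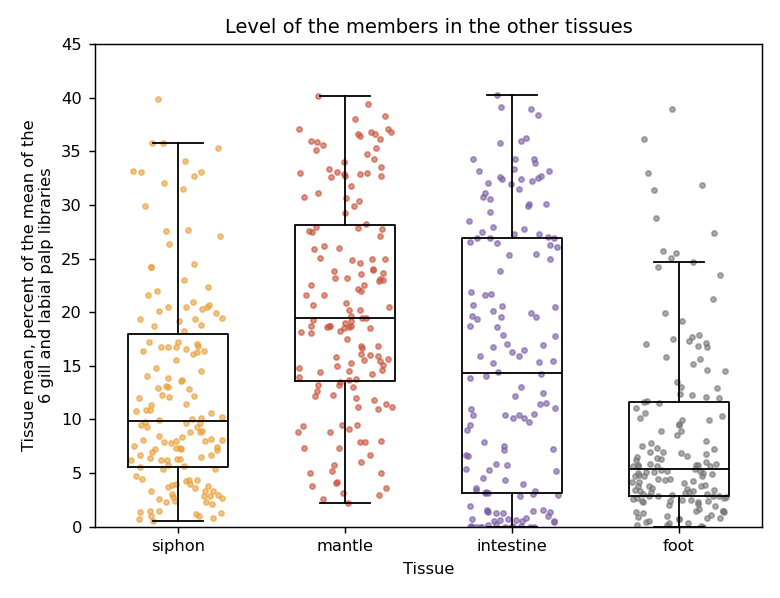
Mean of each other tissue as a percentage of the mean of the 6 gill and labial palp libraries for the 150 members, from deposited FPKM. Points are members, boxes run from the lower to the upper quartile with the median as a line, and whiskers reach the farthest member within 1.5 box lengths. Medians are 9.89% in siphon, 19.5% in mantle, 14.3% in intestine and 5.37% in foot, and a group of members lies at the floor in intestine.

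Among these tissues 59 of 150 members differed at an adjusted p under 0.05 (edgeR quasi-likelihood F-test with Benjamini-Hochberg adjustment over all 29930 clusters), which is 39.3%. The share called was 21.8% over all clusters tested and 30.8% over the 17396 of at least 1 FPKM. By deposited FPKM the mantle was the highest of the 4 tissues in 35 of the 59, the intestine in 15, the siphon in 7 and the foot in 2. The mantle share was 59.3%, against 23.7% of all clusters called, and the intestine share was 25.4%, against 41.3%. On the TMM scale the mantle was highest in 34, the intestine and the siphon in 11 each and the foot in 3. The foot was lowest in 27, the intestine in 25, the siphon in 7 and the mantle in 0, where the shares of all clusters called were 34.5%, 37.6%, 16.2% and 11.7%. After TMM the intestine was lowest in 31 and the foot in 18. The shares of all clusters called are those on deposited FPKM, and none is given for the TMM scale. The spread behind these p-values was estimated from all 18 libraries, so the 6 gill and labial palp libraries used by the rule entered it. The rule disfavours clusters that vary strongly between those 6 libraries, which enters the share of 39.3% and the adjusted p-values of members. A fit to the 12 libraries of these tissues alone called 35 members and 4726 clusters in all, against 59 and 6529.

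Of the members highest in mantle, c8439/15/1800.1 had the lowest adjusted p. Its mantle libraries at 48.2, 23.8 and 46.8 FPKM stood above foot at 12.1, 5.07 and 5.90, siphon at 2.59, 2.67 and 3.97, and intestine at 1.14, 0.35 and 0.34, with no overlap between mantle and the rest. The fitted log2 difference between mantle and intestine was 6.35 ± 0.518 (SE, n = 3 libraries each, edgeR adjusted p = 3.5e-06). Log2 differences with an SE, here and below, come from counts scaled by TMM factors. They therefore differ from those between the deposited FPKM printed beside them. c181349/1/1582.1 likewise had mantle highest, with a log2 difference from intestine of 5.42 ± 1.15 (SE, edgeR adjusted p = 0.00780). The abundant c19/5/958 differed less, by 1.25 ± 0.242 (SE, edgeR adjusted p = 0.00466) between mantle and foot. These calls held in every alternative fit.

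The 3 members of lowest adjusted p among those with intestine highest had mantle close behind and siphon and foot low. c2103/10/1234.1 was at 60.1, 50.9 and 50.4 in gill and 61.4, 59.1 and 67.2 in labial palp. Its intestine libraries were at 22.5, 21.9 and 18.8, mantle at 11.4, 12.4 and 18.2, foot at 3.15, 2.18 and 4.56 and siphon at 1.81, 1.66 and 1.50. The lowest intestine library was only just above the highest mantle library, and siphon lay below every foot library. Intestine exceeded siphon by 2.96 ± 0.259 on the log2 scale (SE, n = 3 libraries each, edgeR adjusted p = 5.5e-06). c8896/1/1222.1 had the same order, with intestine at 20.8, 20.1 and 30.9, mantle at 24.2, 22.5 and 18.6, and siphon and foot at most 4.51, and its next tissue became the mantle after TMM. c18151/1/2645.1 was at 13.0, 14.3 and 10.6 in intestine and 4.10, 8.58 and 9.23 in mantle, and at most 1.18 in siphon and foot. Intestine was above foot by 3.97 ± 0.551 for this cluster (SE, edgeR adjusted p = 9.5e-05).

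Few members were highest in siphon or foot. c420/1/5146, from a long identifier of 5146, was at 16.6, 11.9 and 13.9 in gill and 13.2, 10.98 and 14.9 in labial palp. It was at 4.96, 2.30 and 4.03 in siphon, 2.04, 2.18 and 2.68 in intestine, 1.57, 0.47 and 1.16 in mantle and 0.11, 0.02 and 0.05 in foot. Siphon and intestine overlapped, and the foot was lower than all of them, by 5.81 ± 0.600 from the siphon on the log2 scale (SE, edgeR adjusted p = 4.9e-05). By means, c24552/1/1665 was highest in siphon, at 20.7, 15.7 and 16.7, and its foot libraries at 18.4, 6.33 and 13.9 overlapped these. This cluster was lowest in intestine at 5.65, 6.06 and 4.02, a log2 difference from siphon of 2.45 ± 0.297 (SE, edgeR adjusted p = 1.8e-04). c35110/2/2374 was at 0.51, 4.22 and 11.5 in siphon and at 0 in the 3 foot libraries. c66367/1/2977 was at 4.05, 4.28 and 2.48 in foot and 4.79, 2.37 and 3.20 in siphon, which overlapped. Its intestine libraries were at 0.38, 0.55 and 0.22, below foot by 4.24 ± 0.441 on the log2 scale (SE, edgeR adjusted p = 4.5e-05). On the TMM scale the ratio of c420/1/5146, c24552/1/1665 and c66367/1/2977 was 1.96, 1.42 and 1.44.

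**Figure D5:**
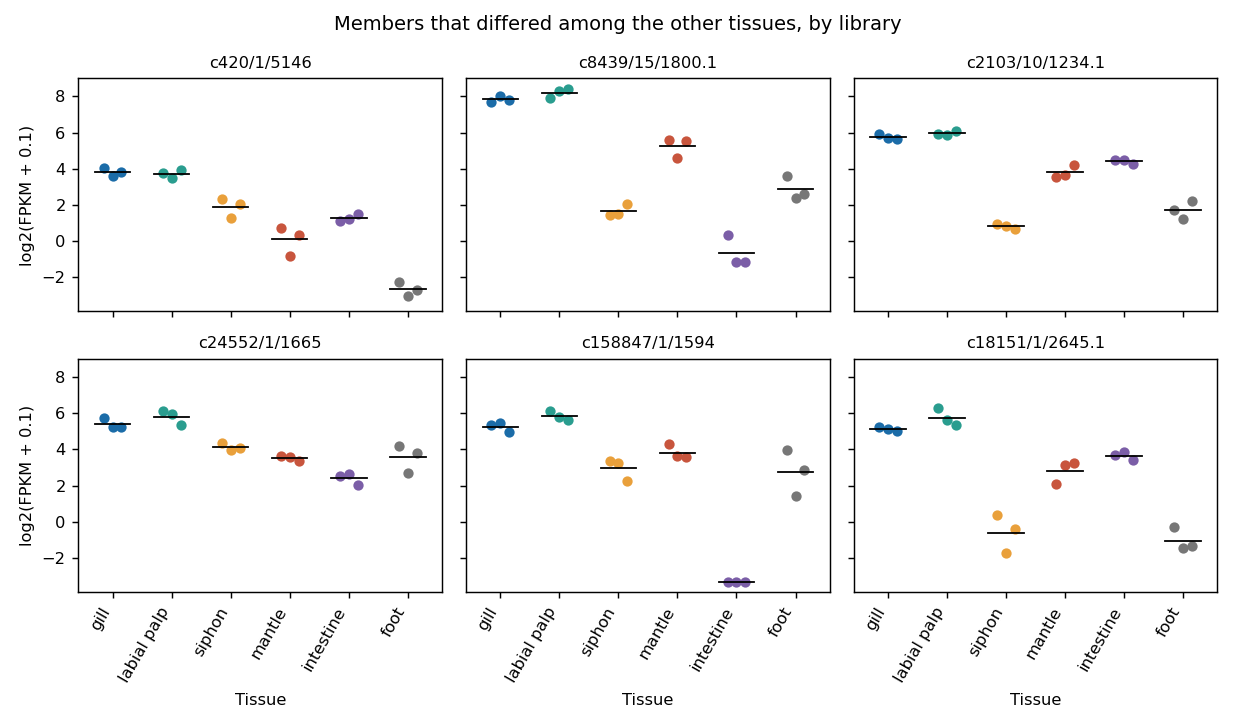
log2(FPKM + 0.1) by tissue for 6 members that differed among siphon, mantle, intestine and foot, 2 each with siphon, mantle or intestine highest. Points are the 3 libraries of a tissue and lines their means. Intestine is the lowest tissue of c8439/15/1800.1 and c158847/1/1594 and the highest of the other tissues in c2103/10/1234.1 and c18151/1/2645.1, and foot is lowest in c420/1/5146.

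A set of members was at or near 0 in the intestine alone. The intestine mean was under 1% of the mean of the 6 gill and labial palp libraries in 23 members. In 7 of the 23 the siphon, mantle and foot means were each at least 10% of it, and ranged from 15.6% to 36.4%. This grouping was made after the values were seen, and it draws on the tissues compared above, so that 7 of 7 passing the test among tissues is a description. No share of all clusters with such profiles is given, nor a count of members near 0 in foot or siphon alone. Nothing particular to the members is read from the 23 or the 7. The intestine libraries were the shallowest, at 9982441 to 10505352 counts, against at least 14701660 in siphon and 14880761 in foot. The part of depth was not tested. c158847/1/1594 was at 40.6, 43.6 and 30.7 in gill and 68.9, 55.9 and 48.8 in labial palp. It was at 19.3, 12.4 and 11.7 in mantle, 10.1, 9.40 and 4.63 in siphon and 15.5, 2.57 and 7.29 in foot, and had 0 reads in each of the 3 intestine libraries. A count of 3 reads in the shallowest intestine library would be 0.224 FPKM for this cluster, and its mantle mean was at least 64.6-fold higher than that floor per library (edgeR adjusted p among the 4 tissues 7.2e-06).

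c156094/1/1583 had nearly the same profile. It was at 38.3, 43.8 and 28.6 in gill, 68.5, 56.3 and 31.1 in labial palp, 19.8, 13.2 and 11.3 in mantle and 0 in intestine. The correlation with c158847/1/1594 over 18 libraries was 0.998 on log2(FPKM + 0.1), and 0.937 for the deviations from tissue means. Reads could have been divided between clusters of such likeness if they share sequence, which was not tested. c87022/1/2198 was the most abundant of the 7, at 87.0, 71.8 and 53.8 in gill and 135, 94.7 and 84.3 in labial palp, with 1 intestine read against 1521 in mantle. c8303/1/2230 had 2 intestine reads and 936 in mantle, c24553/1/2664 had 2 and 665, and c13280/1/3863.3 had 0 and 65. c14457/1/3095 had 1.49, 6.05 and 0 estimated reads in the intestine libraries and 537 in mantle. Over the 21 pairs of the 7 clusters the correlation ran from 0.878 to 0.999 with a median of 0.957, a likeness that their selection on tissue means and the shared libraries enter.

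The replicate number was compared with the members because libraries of the same number moved together in gill and labial palp. Over 26222 clusters the deviations of same-numbered gill and labial palp libraries from their tissue means had correlations of 0.328 to 0.753, and over the members of 0.168 to 0.597. Gill and labial palp were highest in the same number in 75 of 150 members and lowest in the same number in 70, against 53.2% and 52.5% of the 17396 clusters. With tissue in the model, 4 members, or 2.67%, differed by replicate number at an adjusted p under 0.05 (edgeR), where 17.7% of all clusters tested did and 15.7% of those of at least 1 FPKM. The rule disfavours clusters that vary strongly between gill and labial palp libraries, which enters this share. An unadjusted p under 0.05 was found for 16 members, for which no share over all clusters is given and from which nothing is read. DESeq2 called 15 members and 30.9% of all clusters tested.

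c2107/3/3553.1 had the lowest adjusted p by replicate number, 0.00742 in edgeR. It was at 55.2, 122 and 128 in gill and 55.2, 111 and 144 in labial palp, and at 24.2, 29.0 and 47.9 in mantle, 5.36, 8.05 and 12.6 in siphon and 4.12, 5.55 and 8.21 in foot. Number 1 was the lowest and number 3 the highest library in these tissues, but not in the intestine, at 11.3, 11.5 and 11.1. Number 3 exceeded number 1 by 1.09 ± 0.185 on the log2 scale (SE). c161602/1/1997.1 went the other way, at 26.1, 12.1 and 6.65 in gill and 16.2, 11.2 and 9.33 in labial palp, and number 3 was lower than number 1 by a log2 difference of -1.23 ± 0.275 (SE, edgeR adjusted p = 0.0217). Without gill 3 its adjusted p was 0.0595 and without foot 3 it was 0.0550. c39837/1/1578.1 and c88302/1/2090.1 were lower in number 1, with adjusted p of 0.0431 and 0.0449, and were called in 2 and 5 of 18 fits that left out 1 library. c87408/1/1301 did not pass, with an adjusted p of 0.0545. The count of 4 was 11 without mantle 2, 1 without gill 3 or foot 3, and 2 without gill 1, gill 2, labial palp 3, siphon 1, siphon 2, intestine 1, intestine 2 or foot 2. The share of all clusters called was 26.0% without mantle 2, 11.9% without gill 3 and 12.2% without foot 3. It was 9.21% to 13.7% in the fits that called 2 members.

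The identifiers and the counts hold features that the rule did not use. An identifier ends in a length, which a suffix follows in some clusters. A suffix was present in 94 of 150 members, or 62.7%, against 42.7% of all clusters and 39.1% of those of at least 1 FPKM. The identifier length had a median of 2296 in members and 2139 in all clusters. It ran from 958 in c19/5/958 and 1188 in c15465/1/1188.1 to 6245 in c704/1/6245.1 and 8968 in c41/1/8968.1. The effective length implied by count and FPKM was shorter in members, with a median of 961 against 1388 bases in the clusters of at least 1 FPKM. With a suffix the medians were 616 in members and 729 in those clusters, and without one 1855 and 1751.

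The members came from 146 identifier stems, and 4 stems gave 2 members each. Besides the pair at ranks 4 and 5, c155627/5/1937.1 and c155627/5/1937.2 had a correlation over 18 libraries of 0.938, c15222/1/2035.1 and c15222/1/2035.2 of 0.900, and c25148/1/3914.2 and c25148/1/3914.1 of 0.730. The pair c155627/5/1937.1 and c155627/5/1937.2 differed in level, with labial palp libraries at 42.0, 15.5 and 26.7 in the former and 84.5, 75.3 and 82.9 in the latter. The rule sets both clusters of a pair high in the same 6 libraries, which enters these correlations, and none is given for members of different stems beside them. Clusters of one stem may share reads, so their values are uncertain and not independent.

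Another 39 clusters shared a stem with a member, and 36 of them had enough reads to be tested. Such mates may share reads with a member chosen by the rule, so their values are given as descriptions. In 7 of the 36 all 6 gill and labial palp libraries lay above the other 12, whereas this held in only 2.20% of all clusters tested. The ratio was at least 2 in 15 and under 1 in 7, and its median was 1.84 against 0.657 in all clusters tested. The mean of the 6 libraries was above that of the other 12 in 88.9% of them and in 70.0% of all clusters tested.

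Some stems held clusters of unlike profile, named here after their values were seen. c19422/1/3256.2 was at 17.1, 12.2 and 14.4 in gill and 12.1, 16.4 and 14.1 in labial palp, and at most 3.95 in any mantle library. Its stem mate c19422/1/3256.1 had a mean of 160 in mantle, 42.6 in siphon, 15.5 in gill and 22.4 in labial palp. A further mate, c19422/1/3256.3, had means of 4.79 in gill, 6.77 in labial palp and 3.42 in mantle, and its tissue order was nearer to that of the member. c13280/1/3863.3 had no reads in intestine, whereas c13280/1/3863.1 had means of 5.26 in intestine, 4.39 in gill and 4.35 in labial palp. c13280/1/3863.2, at 16.4 in gill, 8.63 in labial palp, 5.27 in foot and 0.617 in intestine, was again nearer to the member. Each of these stems thus held 1 mate unlike the member and 1 more like it.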

How the data were processed

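The tissue of each of the 18 RNA-seq libraries (6 tissues, 3 libraries each, 3 individuals per pool) comes from its tissue label, and the replicate number from its title. For every library the authors gave 32250 isoform clusters a deposited estimated count and a deposited FPKM. RSEM, Bowtie2 and DESeq 1.10.1 are named in the submitters' processing notes, without a role. An Illumina kit is named for the libraries, while the description of the series names a Pacific Biosciences instrument. The FPKM, scaled by the authors for effective length and library total, served to choose and describe the members.

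Estimated counts were rounded. In R 4.3.3, edgeR 4.0.16 tested the 29930 clusters whose reads summed to 10 or more by its quasi-likelihood F-test (TMM factors, tissue as factor, Benjamini-Hochberg adjustment over all of them, threshold 0.05), among the 4 other tissues (3 degrees of freedom) and between replicate numbers in a model that also held tissue (2 degrees of freedom). The fitting was tested on simulated data. Alternatives were DESeq2 1.42.0, limma 3.58.1 with trend on log2(FPKM + 0.1) or log2(FPKM + 1), other normalizations and filters, subsets of libraries, a replicate block and leaving out each library. Depth per library limits precision, and floors cover counting error only.

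Named clusters were ranks 1 to 10 of the ratio, the 5 highest levels, 3 on each side of the edge, the 2 highest and 2 lowest gill to labial palp ratios, the 3 lowest adjusted p for each next highest tissue, the 5 lowest by replicate number, the 2 longest and 2 shortest, and stems with 2 members. The members and these choices were made with earlier results of these data known. Sequences and gene names were not used here.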

Additional observations from a re-analysis of the deposited data

How the results depend on the processing

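The call among siphon, mantle, intestine and foot covered 59 members. It covered 35 when only the 12 libraries of these tissues entered the fit (4726 clusters in all, against 6529). Under the other tools, normalizations and filters it covered between 58 and 85 members, and 6457 to 10552 clusters in all. When 1 library was left out it covered 49 to 60 members, and 5381 to 6338 clusters in all. The number of all clusters called thus also changed with the setting, and nothing particular to the members is read from these shifts. Of the 59, 43 were called in every fit without 1 library and 34 in every alternative. No such counts are given for all clusters called, and nothing particular to the members is read from the 43 or the 34. With the replicate block in the model 67 members and 29.3% of all clusters were called. Deviations of same-numbered libraries correlated above 0.1 in 30 of 30 pairs that held no mantle library and in 0 of 15 that held one. The numbers thus went together outside the mantle, and, as the mantle is among the tissues compared, they were not taken as pairing these libraries. The call by replicate number covered 4 members. It covered 0 when only the 12 libraries of the other tissues entered (7 at an unadjusted p under 0.05), where 0.159% of all clusters were called. It also covered 0 with only the 6 gill and labial palp libraries (16 at an unadjusted p under 0.05), where 0% of all clusters were called. It covered 8 without the mantle libraries, 14 and 13 with limma on log2(FPKM + 0.1) and log2(FPKM + 1), 15 with DESeq2, and 1 to 11 when 1 library was left out. The share of all clusters called was 17.7% in the reported fit and 33.2%, 26.4%, 27.5% and 30.9% in the first 4 of these. It was 9.21% to 26.7% when 1 library was left out. The rule was met by 204 clusters, by 101 with FPKM rescaled by TMM factors, by 48 at a ratio of at least 4, and by 178 to 204 under the other pseudocount and minima. Without 1 library it was met by 202 to 251, and 121 to 148 of the 150 members stayed among the first 150. The next highest tissue on the TMM scale was chosen after seeing the data and gave siphon 29 in place of 18, intestine 30 in place of 47 and foot 18 in place of 8 members. Levels under about 3 reads in a library, most often in intestine, were not resolved at this depth. The causes of these shifts were not tested.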

Other observations

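The same rule was applied to each of the 15 pairs of tissues, as a description. Siphon and foot shared 511 clusters, gill and labial palp 204, labial palp and intestine 68, mantle and intestine 26, gill and intestine 22, and siphon and mantle 21, and every other pair shared at most 11. The siphon and foot libraries had the lowest TMM factors, between 0.509 and 0.825. Those of gill and labial palp lay between 1.25 and 1.42 and those of intestine between 1.15 and 1.33, and these ranges overlapped. The part of the factors in the counts was not tested for the other pairs.

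Within a tissue, the spread of the members between pools was set beside that of other clusters. The median coefficient of variation of members was 25.4% in gill, against 28.3% in the 17396 clusters of at least 1 FPKM, which the rule's demand on the lowest library enters. In mantle, over the 108 members and 15188 such clusters at 1 FPKM or more in all 3 mantle libraries, it was 34.7% against 34.4%, and in foot, over 55 members and 13238 clusters, 40.7% against 32.4%.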
